A study of Mus musculus with 15 samples.

Results

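Bhlha15, Arfgef3, Rab3d and Rab26 are genes of secretory cells, and their messenger RNA was followed here across 15 arrays of primary mouse hepatocytes. They were chosen by name, as a group in which Bhlha15, Arfgef3 and Rab3d were among the genes whose signal differed between cells given extra IRE1a and control cells. Every probe set that the platform's annotation assigns to 1 of these 4 symbols alone was taken. That gave 9 of the 34945 probe sets with a single symbol, 2 for Bhlha15, 2 for Arfgef3, 4 for Rab3d and 1 for Rab26, and 4 of 18193 genes.

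IRE1a, encoded by Ern1, spans the membrane of the endoplasmic reticulum and senses unfolded protein there, and its RNase domain splices the message of the transcription factor XBP1. All hepatocytes came from C57BL/6 mice and all carried an adenovirus. In the first arm the virus delivered EGFP as the control, wild-type IRE1a, or IRE1a with the S724A substitution, for 48 hours and with no further treatment. In the second arm it delivered a control hairpin (shCON) or a single hairpin against IRE1a (shIRE1a#2) for 72 hours, and both groups then had glucagon, the hormone that raises hepatic glucose output, for 4 hours. Each of the 5 groups had 3 arrays, and the series text says that the experiment was run independently 3 times; the labels do not tie the array numbers to those runs. The promoter that drives IRE1a in the virus is not given in the labels, so the groups differ by forced expression in cultured cells and by virus together.

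Bhlha15 encodes MIST1, a basic helix-loop-helix transcription factor of cells that secrete much protein, such as the acinar cells of the mouse pancreas and plasma cells. MIST1 binds E-box sequences and is required in mouse acinar cells for the ordered arrangement of secretory granules, and its gene is a known target of XBP1. Rab3d and Rab26 encode small GTPases of secretory vesicles and are known targets of MIST1 in exocrine cells. Arfgef3 encodes BIG3, a large protein of the Arf exchange factor family that limits granule formation in mouse pancreatic islets. Arfgef3 is also on the list of reported MIST1 targets used below. Hepatocytes secrete plasma proteins continuously and have no zymogen granules.

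The sequences upstream of 3 of the 4 genes are shown because XBP1 and MIST1 are both DNA-binding factors and these 3 members were higher together in the first arm. Each is the 250 bases before the RefSeq start site in build GRCm38.p6, written 5′ to 3′ on the gene's own strand. Bhlha15 lies on the plus strand, and its upstream window is chr5:144190036-144190285. Arfgef3 lies on the minus strand, with the window chr10:18743759-18744008. Rab3d also lies on the minus strand, with the window chr9:21918184-21918433. Capitals mark CCACG on either strand, which reads CGTGG when it lies on the opposite strand, and ACGT, the core of the elements that XBP1 is known to bind.
Bhlha15: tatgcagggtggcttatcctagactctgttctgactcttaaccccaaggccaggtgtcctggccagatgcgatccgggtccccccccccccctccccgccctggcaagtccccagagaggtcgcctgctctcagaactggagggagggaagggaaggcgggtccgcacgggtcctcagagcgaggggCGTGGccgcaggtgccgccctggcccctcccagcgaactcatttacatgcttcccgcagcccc
Arfgef3: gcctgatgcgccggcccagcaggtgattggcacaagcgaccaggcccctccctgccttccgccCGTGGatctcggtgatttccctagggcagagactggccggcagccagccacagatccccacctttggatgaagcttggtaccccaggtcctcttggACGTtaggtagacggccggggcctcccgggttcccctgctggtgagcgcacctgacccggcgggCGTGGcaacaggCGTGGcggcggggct
Rab3d: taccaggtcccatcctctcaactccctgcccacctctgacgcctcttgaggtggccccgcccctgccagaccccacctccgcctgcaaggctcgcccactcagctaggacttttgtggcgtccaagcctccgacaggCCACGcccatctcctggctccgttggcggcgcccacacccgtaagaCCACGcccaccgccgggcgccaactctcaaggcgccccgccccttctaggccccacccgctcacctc
All 3 windows held CCACG, at 1 place for Bhlha15, 3 places for Arfgef3 and 2 places for Rab3d, and so did 28.3% of the 32851 promoter windows of this length. ACGT occurred once, in the Arfgef3 window, 91 bases before the start, and was present in 26.9% of all windows. E-boxes of the form CANNTG, searched on both strands, occurred at 3 places for Bhlha15 and 2 places for Arfgef3 and were not in the Rab3d window, against 66.2% of all windows with at least 1. The E-box CATATG, which MIST1 is known to prefer, was in none of the 3 windows and in 3.46% of all windows. The full endoplasmic reticulum stress element, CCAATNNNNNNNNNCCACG, was likewise in none of them and in 0.113% of all windows. In the first 50 transcribed bases, Bhlha15 had ACGT at position 20 and CGTGG at positions 4 and 36. Arfgef3 had ACGT at position 2, where it overlapped CGTGG at position 3, and Rab3d had neither. Of all 32851 windows, 5.56% had ACGT in those 50 bases and 6.83% had CCACG on either strand. The windows were rich in G and C, at 66.8% for Bhlha15, 68.4% for Arfgef3 and 69.2% for Rab3d. A match is a run of letters and was not tested for binding. The start of Rab3d in the promoter table, base 21918183, differs from the end of the gene in the gene table, base 21918199. Rab26 lies on chromosome 17, from 24529054 to 24533747, and had no upstream sequence in the table used.

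**Figure D1:**
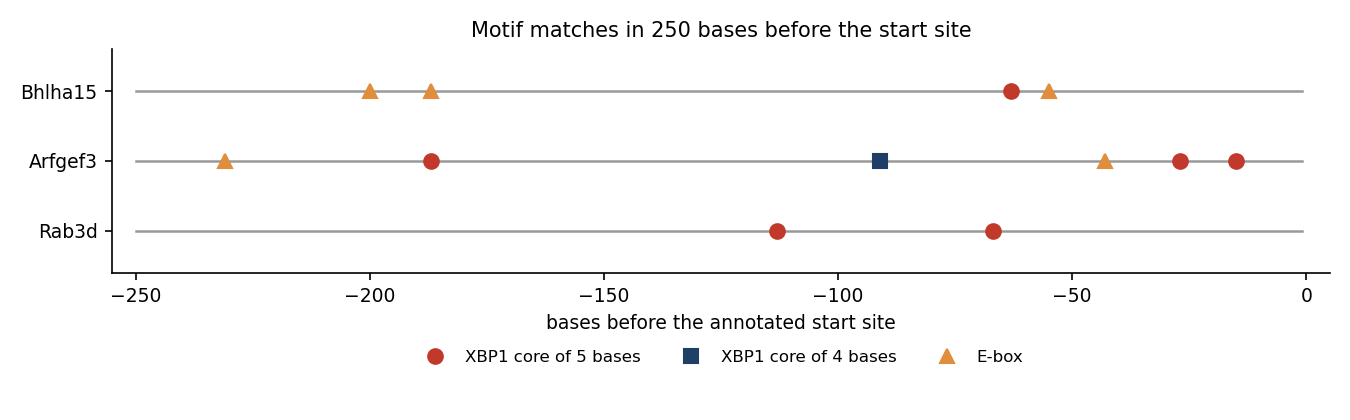
Matches in the 250 bases before the start sites of Bhlha15, Arfgef3 and Rab3d, by distance from the start in bases (horizontal axis), with 1 line per gene; circles mark CCACG on either strand, the square ACGT and triangles CANNTG. All 3 genes have CCACG upstream of the start, and Rab3d has neither ACGT nor an E-box in the 250 bases before it.

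Values below are the authors' log2 signals, and differences are differences of log2 signals ± SE from limma with n = 3 arrays per group. A signal of 4 was taken as the level near background. Array medians lay between 5.69 and 5.83, and 79.0% to 81.4% of all probe sets reached 4. Ern1 checked the hairpin label: its brightest probe set was 8.98 ± 0.110 (SD, n = 3) with the control hairpin and 7.52 ± 0.0787 with the IRE1a hairpin, and it fell by 1.47 ± 0.19 (2.76-fold lower, adjusted p = 0.00293 by limma over 16294 genes). This was 1 of the 5 Ern1 probe sets past the threshold, and the mean of the 5 differed by −0.56. In the first arm no Ern1 difference was past the threshold: its difference from EGFP was 0.12 with wild-type IRE1a and 0.46 with S724A IRE1a (adjusted p = 0.775 and 0.159), and the labels do not say whether these probe sets can read the message made by the virus. Of 9 genes of IRE1a and XBP1 signalling, 8 were past the threshold and higher with either form of IRE1a, where 5.08% and 3.87% of all genes were called higher. Among them were Xbp1 itself (0.63 ± 0.11, adjusted p = 0.00309, and 0.52 ± 0.11, adjusted p = 0.0137) and Dnajb9, a chaperone induced by XBP1 (1.34 ± 0.20, adjusted p = 0.000751, and 1.28 ± 0.20, adjusted p = 0.00128). The S724A call for Xbp1 was lost without S724A replicate 2 or without EGFP replicate 2.

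Cells with extra IRE1a had far higher signals for Bhlha15 and Arfgef3, and higher signals for Rab3d, than cells with EGFP, whichever form of IRE1a the virus carried. With wild-type IRE1a Bhlha15 was 12.6-fold, Arfgef3 at least 10.7-fold and Rab3d 2.40-fold above EGFP, each by its brightest probe set. The Arfgef3 value is a bound because its EGFP signal was near background. Rab26 did not share this pattern. The members were chosen on these comparisons, which also share the EGFP arrays, so these values are a description and carry no test. The RNA came from whole cultures, in which more cells of a type and more RNA per cell cannot be told apart.

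Bhlha15 was read by 2 probe sets, and 1449233_at, the brighter of them, stands for the gene. Its signals were 6.33, 6.09 and 5.78 with EGFP, 9.36, 10.07 and 9.72 with wild-type IRE1a, and 9.27, 10.21 and 9.25 with S724A IRE1a. In the second arm they were 5.51, 5.71 and 6.00 with the control hairpin and 6.07, 6.28 and 5.73 with the IRE1a hairpin. All 6 arrays with an IRE1a virus lay above the other 9, which overlapped one another group by group. The group means were 6.07 ± 0.273 with EGFP, 9.72 ± 0.351 with wild-type IRE1a and 9.58 ± 0.545 with S724A IRE1a (SD, n = 3). The differences from EGFP were 3.65 ± 0.26 for wild-type and 3.51 ± 0.26 for S724A IRE1a, the latter being 11.4-fold.

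The other Bhlha15 probe set, 1418800_at, also had both IRE1a groups on top, with a smaller difference from EGFP. It read 5.35, 5.11 and 5.19 with EGFP, 6.04, 6.70 and 5.60 with wild-type IRE1a, and 6.18, 6.52 and 5.68 with S724A IRE1a. With the control hairpin it read 4.76, 4.99 and 4.86, and with the IRE1a hairpin 5.36, 5.53 and 4.67. The IRE1a virus arrays again lay above the EGFP arrays, by 0.90 ± 0.27 (1.86-fold) and 0.91 ± 0.27 (1.88-fold). The 2 probe sets of Bhlha15 therefore disagreed on the size of the difference, and their averaged signal differed from EGFP by 2.27 and 2.21.

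Arfgef3 also had 2 probe sets. The brighter, 1435050_at, read 3.94, 3.99 and 4.28 with EGFP, 7.56, 7.65 and 7.33 with wild-type IRE1a, and 7.67, 8.05 and 7.52 with S724A IRE1a. It read 3.70, 4.20 and 3.81 with the control hairpin and 3.80, 4.11 and 3.75 with the IRE1a hairpin. Without an IRE1a virus Arfgef3 was thus at or near background, with 9 of 15 arrays at 4 or more, and 6 of those 9 carried IRE1a. Of the EGFP arrays 1 of 3 reached 4, so the differences are given as bounds, with every signal below 4 raised to 4. Arfgef3 was then at least 10.7-fold above EGFP with wild-type IRE1a (3.42 on the log2 scale) and at least 12.6-fold with S724A IRE1a (3.65). The measured signals differed by 3.44 ± 0.17 and 3.68 ± 0.17.

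The dimmer Arfgef3 probe set, 1455995_at, read 2.93, 2.95 and 2.81 with EGFP, 5.85, 6.04 and 5.40 with wild-type IRE1a, and 4.66, 5.68 and 5.37 with S724A IRE1a. In the second arm it read 2.66, 2.92 and 2.77 with the control hairpin and 2.81, 3.02 and 2.89 with the IRE1a hairpin. It reached 4 on 6 arrays, all with an IRE1a virus, and so passed the filter on dim signals only through those groups. No EGFP array reached 4, so this probe set also gives only bounds. With signals below 4 raised to 4 it was at least 3.39-fold above EGFP with wild-type IRE1a (1.76 on the log2 scale) and at least 2.35-fold with S724A IRE1a (1.24).

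Rab3d, a vesicle GTPase of exocrine cells, was read by 4 probe sets, 3 of which were higher with IRE1a. The brightest, 1449259_at, read 7.50, 7.84 and 7.36 with EGFP, 8.78, 8.82 and 8.88 with wild-type IRE1a, and 8.66, 8.85 and 8.52 with S724A IRE1a. It read 8.13, 7.92 and 7.79 with the control hairpin and 8.20, 7.92 and 7.99 with the IRE1a hairpin. Unlike Arfgef3, Rab3d by this probe set was well above background in every group. The IRE1a virus arrays formed the highest 6 of the 15, and the differences from EGFP were 1.26 ± 0.14 and 1.11 ± 0.14 (2.16-fold).

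Probe set 1418890_a_at gave a larger difference for Rab3d, 1.78 ± 0.16 (3.44-fold) with wild-type and 1.71 ± 0.16 (3.26-fold) with S724A IRE1a. Its signals were 7.44, 7.46 and 7.38 with EGFP, 9.16, 9.30 and 9.16 with wild-type IRE1a, and 9.02, 9.30 and 9.07 with S724A IRE1a. No array with an IRE1a virus came close to the others, of which the highest was 8.09 with the IRE1a hairpin.

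Probe set 1418891_a_at had 1 array apart from its group. It read 7.24, 7.14 and 7.14 with EGFP, 9.06, 9.05 and 7.79 with wild-type IRE1a, and 8.83, 9.10 and 8.86 with S724A IRE1a. The third wild-type array was the low one, and it overlapped the hairpin arm, where the signals were 7.70, 7.05 and 7.22 with the control hairpin and 8.01, 7.38 and 7.88 with the IRE1a hairpin. The differences from EGFP were 1.46 ± 0.28 (2.75-fold) and 1.76 ± 0.28 (3.38-fold), and the first was 1.88 without wild-type replicate 3.

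The fourth Rab3d probe set, 1449260_at, moved little. Its signal was the same to the last digit on 7 of the 15 arrays, spread over all 5 groups, at 4.93. Its differences from EGFP were 0.17 and 0.15.

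Rab26, a vesicle GTPase related to Rab3d, had a single probe set, 1435500_at, and was flat or slightly lower. It read 5.53, 5.70 and 5.37 with EGFP, 5.68, 5.50 and 5.34 with wild-type IRE1a, and 5.18, 5.27 and 5.27 with S724A IRE1a. With the control hairpin it read 5.43, 5.18 and 5.47, and with the IRE1a hairpin 5.33, 5.32 and 5.01. The wild-type and EGFP arrays overlapped, with a difference of −0.02 ± 0.13. All 3 S724A arrays lay below all 3 EGFP arrays, with a difference of −0.29 ± 0.13 (1.22-fold lower). The Rab26 signals, 5.01 to 5.70, were low beside array medians of 5.69 to 5.83. Whether this probe set reads Rab26 message or background at that level was not tested.

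**Figure D2:**
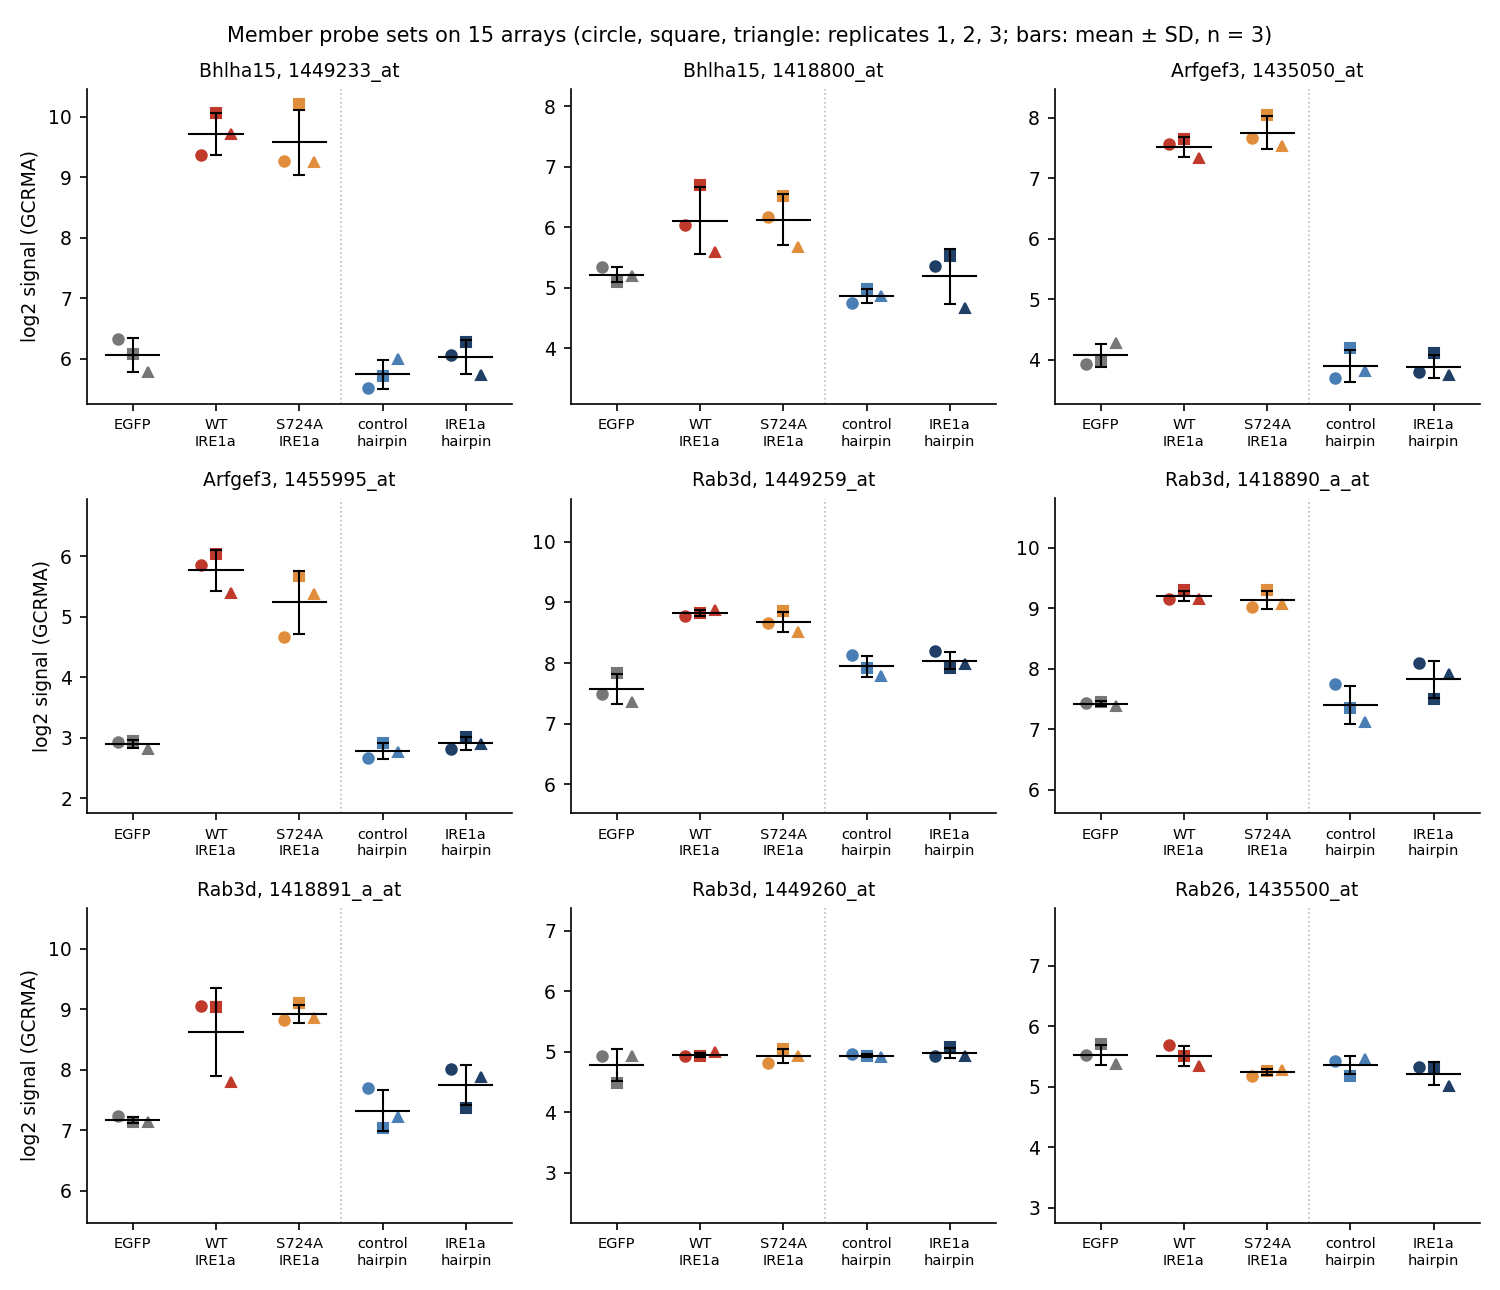
Log2 signal (vertical axis) of each member probe set on each of the 15 arrays, by group, with points for arrays, bars for the mean ± SD (n = 3) and a dotted line between the arms. Bhlha15, Arfgef3 and 3 of the 4 Rab3d probe sets are higher in both IRE1a groups, apart from the third wild-type array of 1418891_a_at, and Rab26 is not.

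Of the 9 member probe sets, 6 were past the threshold and higher with wild-type IRE1a than with EGFP, where 3.77% of the 30046 probe sets tested were called higher. The same 6 of 9 were so with S724A IRE1a, where 3.13% of all were called higher. Since these comparisons chose the members, nothing is read from the shares. The other 3 were Bhlha15 1418800_at, Rab3d 1449260_at and Rab26, and the first of them had the smallest difference among those whose groups lay apart upward. Groups did not overlap, with IRE1a above EGFP, for 7 of the 9 probe sets in either comparison, against 13.9% of all probe sets with wild-type and 16.4% with S724A IRE1a. S724A IRE1a lay below EGFP without overlap for Rab26 alone among the members, against 15.4% of all probe sets.

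Wild-type and S724A IRE1a were then set against each other, a comparison that the choice of members did not use directly, although it rests on the same IRE1a arrays. None of the 9 probe sets differed past the threshold by limma, and none of the 30046 did (0.00% called), although 2210 of them had an unadjusted p under 0.05, among them 1 member probe set. For Bhlha15 1449233_at the difference was 0.14 ± 0.26, with a 95% confidence interval from −0.41 to 0.69 (adjusted p = 0.944 by limma). For Arfgef3 1435050_at it was −0.23 ± 0.17 with an interval from −0.59 to 0.13 (adjusted p = 0.790 by limma). For Rab3d 1449259_at it was 0.15 ± 0.14 with an interval from −0.15 to 0.45 (adjusted p = 0.850 by limma). These intervals exclude differences between the forms as large as those from EGFP, and leave room for differences of the size of their bounds.

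The probe set with an unadjusted p under 0.05 was Arfgef3 1455995_at, higher with wild-type IRE1a by 0.53 ± 0.21 (interval 0.08 to 0.98, adjusted p = 0.638 by limma). Its groups overlapped, and array by array of the same number the difference was 1.19, 0.36 and 0.03. Without S724A replicate 1, its lowest IRE1a array, the difference was 0.24. The brighter Arfgef3 probe set differed in the opposite direction. Rab26 was the 1 member probe set whose groups did not overlap, with all 3 wild-type arrays above all 3 S724A arrays, against 7.83% of all probe sets with wild-type above. Its difference was 0.27 ± 0.13 (interval −0.01 to 0.55, adjusted p = 0.690 by limma). For the other probe sets the difference was −0.02 for Bhlha15 1418800_at, 0.07 for Rab3d 1418890_a_at, −0.30 for Rab3d 1418891_a_at and 0.02 for Rab3d 1449260_at. The third of these was 0.12 without wild-type replicate 3.

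**Figure D3:**
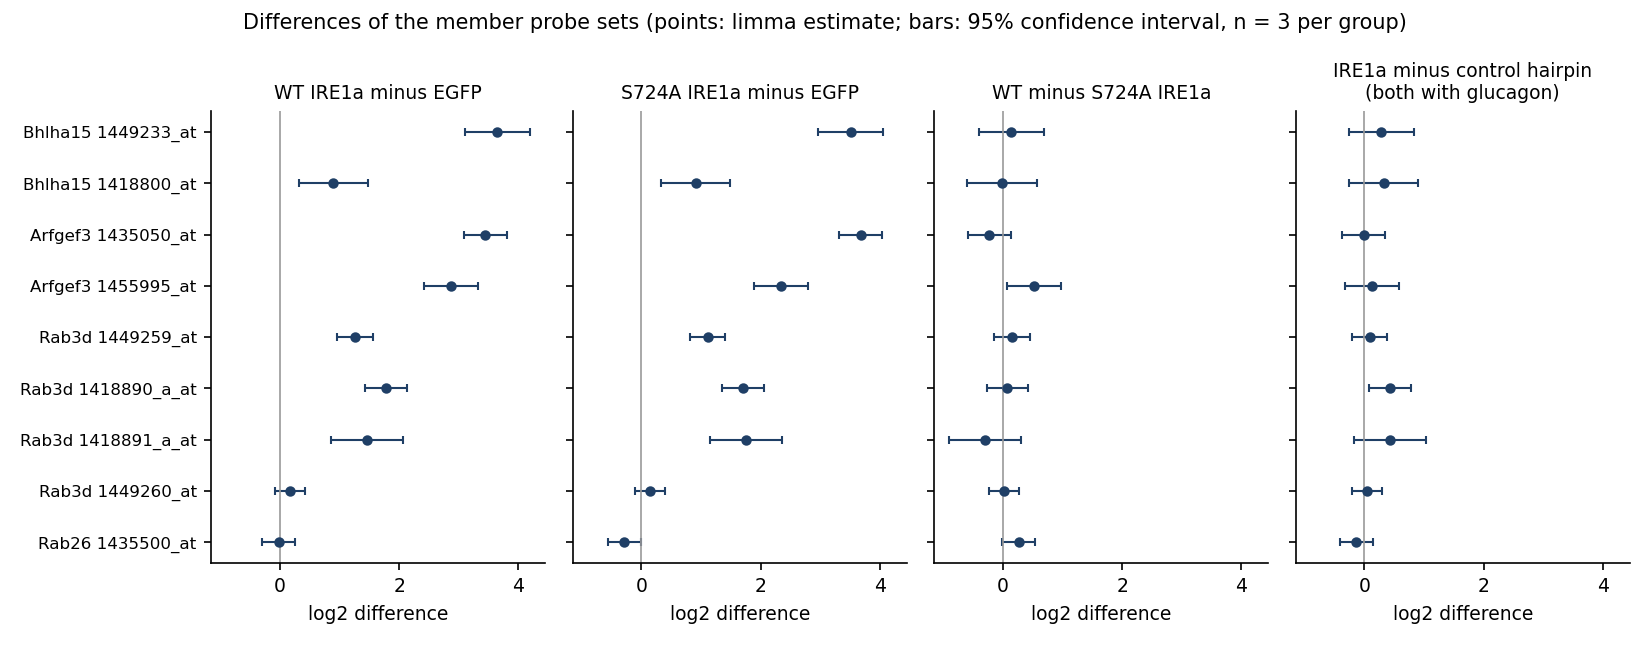
Differences of log2 signal (horizontal axis) for each member probe set in the 4 comparisons, with points for limma's estimate and bars for its 95% confidence interval; those from EGFP chose the members and are a description. In the comparisons of wild-type with S724A IRE1a and of the hairpins, the estimates stay between −0.30 and 0.53.

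The knockdown bears on whether the members fell when endogenous IRE1a was lowered in glucagon-treated hepatocytes. Of the 9 genes of IRE1a and XBP1 signalling, only Ern1 itself was past the threshold and lower, against 0.184% of all genes called lower. Dnajb9 was the highest of the 9 at 0.15, and Xbp1 differed by −0.08. The median of the 9 was −0.09, beside 0.02 over all genes. With none but Ern1 past the threshold, the known XBP1 readouts gave no called fall to set the members against. None of the 9 member probe sets was past the threshold by limma, against 0.170% of all probe sets, and 1 had an unadjusted p under 0.05. No member probe set had groups that did not overlap, against 12.2% of all in either direction. Bhlha15 1449233_at differed by 0.28 ± 0.26 in the direction of the IRE1a hairpin (interval −0.26 to 0.83, adjusted p = 0.797 by limma), and Bhlha15 1418800_at by 0.32 ± 0.27 (interval −0.26 to 0.90, adjusted p = 0.779 by limma). In both probe sets replicates 1 and 2 were higher with the IRE1a hairpin and replicate 3 was lower, by number 0.55, 0.57 and −0.27 for the first and 0.61, 0.54 and −0.18 for the second. A fall of Bhlha15 by more than 0.26 thus lay outside both intervals. The Bhlha15 signals in these arrays were low, at 5.51 to 6.28 and 4.67 to 5.53, beside array medians of 5.69 to 5.83. Whether the probe sets had room to show a fall at that level was not tested. Arfgef3 1435050_at differed by −0.02 ± 0.17 (interval −0.38 to 0.35) and Arfgef3 1455995_at by 0.12 ± 0.21, but both were near background in these 6 arrays, so little room was left to see a fall.

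Rab3d had point estimates above 0 with the IRE1a hairpin in all 4 probe sets, at 0.09, 0.43, 0.43 and 0.04. The largest in relation to its error was 1418890_a_at, which read 7.74, 7.35 and 7.12 with the control hairpin and 8.09, 7.49 and 7.91 with the IRE1a hairpin. These groups overlapped, and the difference was 0.43 ± 0.16 (interval 0.08 to 0.77, adjusted p = 0.521 by limma). By replicate number it was 0.35, 0.15 and 0.78, and with the replicate number as a block the adjusted p was 0.150 by limma. For the brightest Rab3d probe set the interval ran from −0.21 to 0.38. Rab26 differed by −0.14 ± 0.13 (adjusted p = 0.799 by limma).

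Set in order of their means over all 5 groups, the members fell into different patterns. For Bhlha15, Arfgef3 and Rab3d, apart from the flat probe set 1449260_at, the groups given an IRE1a virus stood first and overlapped each other. They stood apart from the group next in order, except in Rab3d 1418891_a_at. In those probe sets the EGFP and hairpin groups overlapped their neighbours in order, except that the IRE1a hairpin arrays of Rab3d 1418890_a_at all lay above the EGFP arrays. Among groups that were not neighbours, the IRE1a hairpin arrays also all lay above the EGFP arrays in Rab3d 1449259_at and 1418891_a_at. The EGFP arrays all lay above the control hairpin arrays in Bhlha15 1418800_at. For Rab26 every group overlapped its neighbour. The hairpin arm differs from the first arm in virus, time and glucagon, so this order across arms is a description only.

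The profiles of Bhlha15 and Arfgef3 over the 15 arrays, each centred on its own mean, were close to each other, with a root mean square difference of 0.310. That of Bhlha15 about its own mean was 1.84. Among the 16290 other genes tested, the most similar to both was Fkbp11, a prolyl isomerase of the endoplasmic reticulum, at 0.488 from Bhlha15 and 0.423 from Arfgef3. Gm17767, Manf, Tmed3 and Nucb2 followed for both, at 0.658 to 0.789 from Bhlha15 and 0.624 to 0.744 from Arfgef3. MANF is a secreted factor made under endoplasmic reticulum stress, and TMED3 is a cargo receptor of early secretory transport. Rab3d, with a smaller range of 0.491 about its own mean, was nearest to Alg2, a mannosyltransferase of N-glycan assembly, at 0.170. Nktr, Cog3, Htra2 and Ccrl2 came next, at 0.176 to 0.187, and Cog3 encodes a subunit of a Golgi tethering complex. Rab26 varied by 0.180 about its mean, and its nearest genes, Col25a1, Smkr-ps, Cd72, Zap70 and Dus4l, lay at 0.0821 to 0.0964. This measure favours genes of like amplitude, and all points share the same 15 arrays. Bhlha15 and Arfgef3 were both chosen for their difference from EGFP. Their closeness is in part set by that choice, and nothing is read from it. The place of Fkbp11 rests on 1 of its 3 probe sets, the only 1 past the threshold against EGFP. That probe set differed from EGFP by 3.26 and 3.21, and the mean of the 3 by 1.17 and 1.10.

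**Figure D4:**
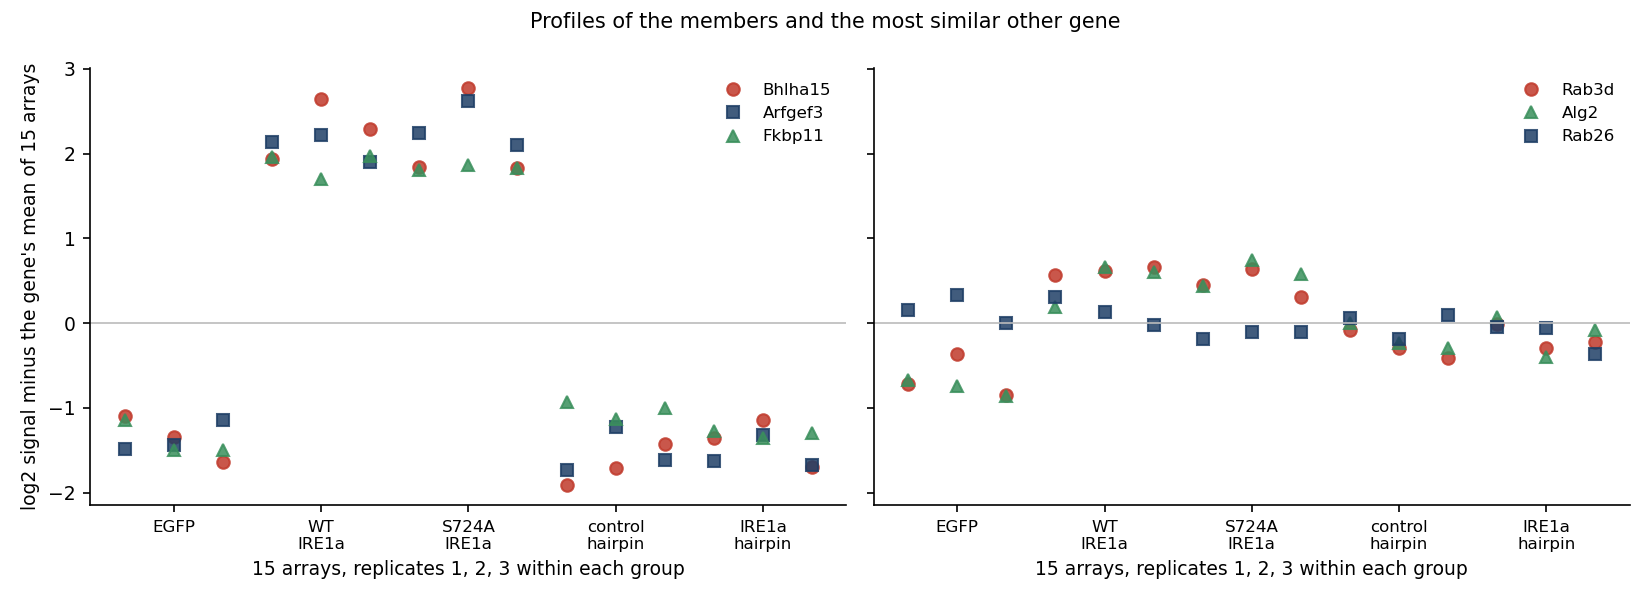
Log2 signal minus the gene's mean over the 15 arrays (vertical axis), by array and group, for Bhlha15 and Arfgef3 with Fkbp11 (left) and for Rab3d and Rab26 with Alg2 (right). Bhlha15, Arfgef3 and Fkbp11 are all at least 1.5 above their mean in the IRE1a groups, and Rab26 stays within 0.4 of its mean.

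Bhlha15 was compared with the genes known as targets of MIST1 in other tissues. Besides the members, 9 such genes were tested, and 1 was past the threshold and higher with either form of IRE1a (11.1%), against 5.08% of all genes with wild-type and 3.87% with S724A IRE1a. That gene was Ccpg1, a receptor for autophagy of the endoplasmic reticulum, which rose by 0.92 ± 0.13 (1.89-fold, adjusted p = 0.000578 by limma) and by 0.80 ± 0.13 (adjusted p = 0.00203 by limma). It had 2 probe sets, of which 1 passed. The median difference of the 9 genes was 0.18 with wild-type and 0.13 with S724A IRE1a, beside a median over all genes of 0.00 and −0.01, and their differences ran from −0.28 to 0.92 with wild-type IRE1a. None of the 9 passed in the comparison of the forms, where 0.00% of genes did, or of the hairpins, where 0.233% did.

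Rab3d stood first of the 58 Rab genes tested by its difference from EGFP with both forms of IRE1a, while Rab26 stood in place 45 with wild-type and 54 with S724A IRE1a. Rab3d was chosen on these comparisons, so its high place is a description and nothing is read from it. Of the other 56 Rab genes, 6 rose with wild-type IRE1a (10.7%) and 3 with S724A IRE1a (5.36%), and none fell; over all genes 5.08% and 3.87% were called higher, so the S724A share is near that of all genes. Rab4a, a GTPase of endosomal recycling, was second to Rab3d and rose by 1.19 ± 0.16 (adjusted p = 0.000250 by limma) and by 0.96 ± 0.16 (adjusted p = 0.00165 by limma). Rab20 rose by 0.54 ± 0.15 with wild-type IRE1a (adjusted p = 0.0450 by limma) and by 0.89 ± 0.15 with S724A IRE1a (adjusted p = 0.00249 by limma). The wild-type call was lost without any 1 of the 6 arrays compared. Rab9 and Rab1a, which act in transport from endosomes to the Golgi and from the endoplasmic reticulum to the Golgi, rose with wild-type IRE1a by 0.41 and 0.36 (adjusted p = 0.0119 and 0.0205 by limma). Both calls were lost without wild-type replicate 3, without EGFP replicate 2, or in a fit of only the 6 arrays compared. That of Rab1a was also lost without EGFP replicate 3. The hairpin against IRE1a changed none of the 56 past the threshold.

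**Figure D5:**
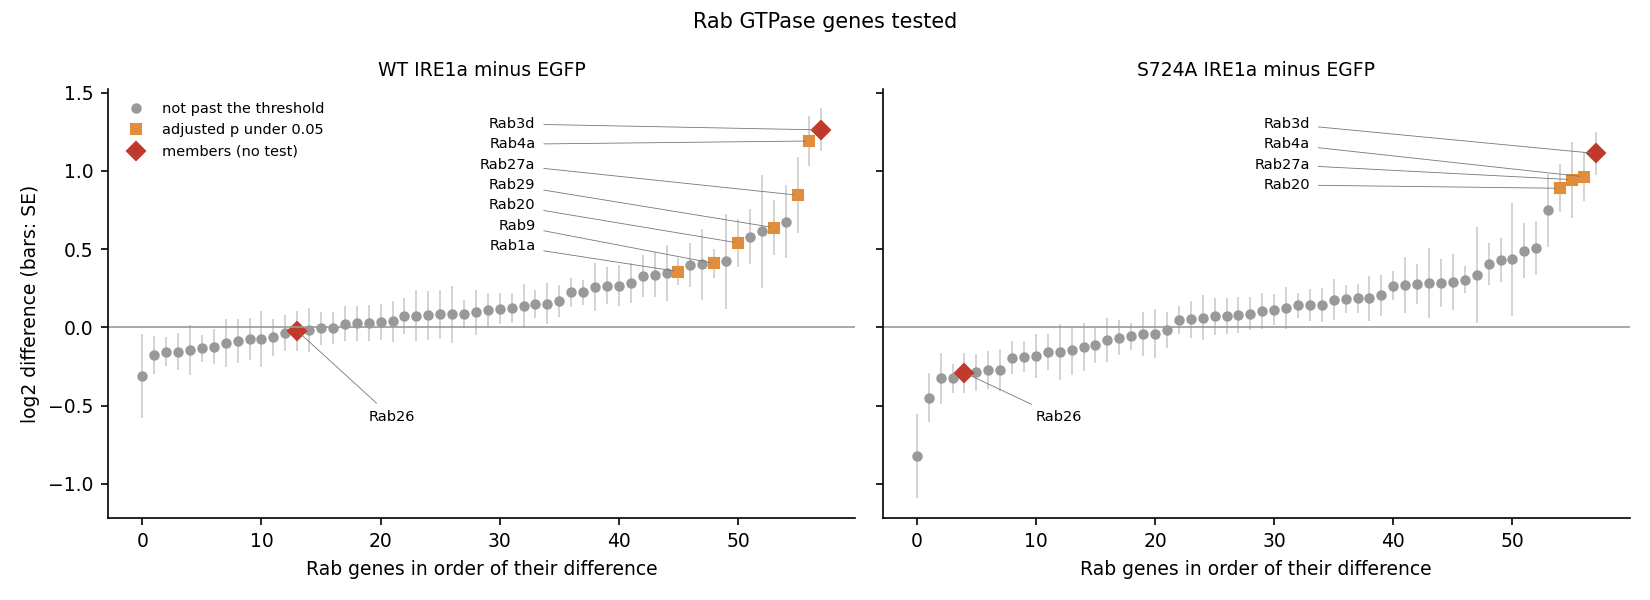
Differences of log2 signal from EGFP for the 58 Rab genes tested, in order from lowest to highest (horizontal axis: order; vertical axis: difference, bars: SE), with wild-type IRE1a and with S724A IRE1a. Rab3d, which was chosen on these comparisons, is the highest in both and Rab4a the next, and Rab26 lies at places 45 and 54 from the top.

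The machinery around the members was measured through lists of their partners. Of 33 genes of secretory granules and exocytosis, 2 rose with wild-type IRE1a (6.06%) and 1 with S724A IRE1a (3.03%), with medians of −0.01 and −0.06. These shares are near the 5.08% and 3.87% of all genes called higher. They were Rab27a, a granule GTPase (0.84 ± 0.24, adjusted p = 0.0475, and 0.94 ± 0.24, adjusted p = 0.0332 by limma), and, with wild-type IRE1a, Vamp8, a SNARE of granule fusion (0.48 ± 0.11, adjusted p = 0.0141 by limma). The Rab27a calls were lost in 8 and 6 of 16 alternative settings, among them the loss of EGFP replicate 1 or 2, of wild-type replicate 1 or 3, and of any S724A replicate. The Vamp8 call was lost without wild-type replicate 1, without EGFP replicate 2, or in a fit of only the 6 arrays compared. None of 10 regulators of Rab3 passed in any comparison. Among 19 Arf GTPases and exchange factors beside Arfgef3, 2 rose with both forms (10.5%, against 5.08% and 3.87% of all genes called higher), Arf4 by 0.58 ± 0.10 and 0.64 ± 0.10 (adjusted p = 0.00309 and 0.00171 by limma) and Arf6 by 0.46 ± 0.09 and 0.42 ± 0.09 (adjusted p = 0.00700 and 0.0169 by limma). The Arf6 rise was seen in 1 of its 4 probe sets and was 0.07 and 0.06 over their mean, and its S724A call was also lost without S724A replicate 2, S724A replicate 3 or EGFP replicate 3.

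Among 20 other transcription factors of secretory cells, 3 rose with wild-type IRE1a and 2 with S724A IRE1a, where 5.08% and 3.87% of all genes were called higher. Creb3l2, a membrane-bound factor of the secretory pathway, rose by 1.09 ± 0.22 and 1.16 ± 0.22 (adjusted p = 0.00599 and 0.00471 by limma), and Xbp1 rose as given above. Id2, an inhibitor of basic helix-loop-helix factors, rose by 1.03 ± 0.29 with wild-type IRE1a (adjusted p = 0.0416 by limma). That call was lost in 7 of 16 alternative settings, among them without wild-type replicate 2 or 3 or EGFP replicate 1 or 2. None of its 3 probe sets passed in the fit of probe sets, and their mean differed by 0.73 (adjusted p = 0.0547 by limma). Ptf1a and Prdm1, which act in acinar and plasma cells, did not reach the filter.

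Markers of the cell types in which Bhlha15 is best known did not move as a group with it. Of 12 acinar markers on the array, 1, the elastase gene Cela1, was past the threshold with wild-type IRE1a (8.33%; 0.63 ± 0.14, adjusted p = 0.0121 by limma), a call lost without wild-type replicate 3 or EGFP replicate 2, and none was with S724A IRE1a. The mean of the 12 lay between 5.71 and 5.79 on the EGFP arrays, between 5.61 and 5.86 with wild-type and between 5.59 and 5.61 with S724A IRE1a. The wild-type range held the EGFP range, and the S724A range lay below it. Of 10 plasma and B cell markers, Jchain, Cd79b and Pou2af1 stayed below 4 on all 15 arrays and none of the other 7 was past the threshold. None of the cholangiocyte, macrophage, endothelial and stellate cell markers tested was past the threshold in any comparison. Their array means still differed in places: with S724A IRE1a the 8 endothelial markers averaged 5.62 to 5.73 against 5.78 to 5.95 with EGFP, and the 8 stellate markers 5.06 to 5.16 against 5.26 to 5.37, both without overlap. The 8 macrophage markers averaged 6.88 to 6.96 with S724A IRE1a and 6.80 to 6.88 with EGFP, also without overlap. With wild-type IRE1a the ranges of these 3 lists overlapped those of EGFP. The part of these shifts in the members' values was not tested. The hepatocyte label held: 10 of 10 hepatocyte markers were at 4 or more on every array, with array means between 12.1 and 12.8, and 1 of them, Hnf4a, rose with wild-type IRE1a by 0.74 ± 0.19 (adjusted p = 0.0237 by limma), a call lost without wild-type replicate 2, wild-type replicate 3 or EGFP replicate 2.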

How the data were processed

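The RNA of each of 15 samples was hybridised to 1 Affymetrix mouse array. The authors deposited 1 log2 signal per probe set and array, made with GCRMA per the submitters' processing notes (no version given in the sources used here), and the log2 scale was read from the values. Of 45101 probe sets, 64 were controls, 34945 had 1 symbol, 932 several and 9160 none in the platform's annotation.

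Probe sets at 4 or more on at least 3 of 15 arrays were tested, which left 30046 probe sets, all 9 members among them, and 16294 genes, each by its probe set with the highest mean. All arrays entered 1 linear model with a mean per group, in R 4.3.3 with limma 3.58.1 (lmFit, eBayes, 10 residual degrees of freedom). Adjusted p-values are two-sided, by Benjamini-Hochberg over all features of a comparison, with a threshold of 0.05; members use the fit of probe sets, other genes that of genes. The tests were tried on simulated data. Separate cultures are stated only as independent experiments, so p-values measure the spread between these arrays.

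The members and lists were chosen with earlier results of these data known, and the lists were written from general knowledge. Named are all members, Ern1, Xbp1 and Dnajb9, up to 4 genes with the smallest p past the threshold per list and comparison, and the 5 genes most like each member by root mean square over centred profiles. List members below the filter, and Rab20 with wild-type IRE1a, are named outside this rule. Same-number arrays deviated together within an arm: residual correlations over probe sets exceeded 0.1 in 11 of 12 pairs (0.0991 to 0.653), and in 4 of 18 across arms. A fit with the replicate number as a block was therefore run as an alternative; the values printed come from the fit without it, unless the block is named. Motifs in the first 50 transcribed bases were searched after the upstream windows were seen. The comparison of protein sequences was not run, and proteins were not analysed here.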

Additional observations from a re-analysis of the deposited data

How the results depend on the processing

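The 7 member probe sets that were higher with IRE1a kept a positive difference from EGFP in all 104 values under other settings with wild-type and all 104 with S724A IRE1a. Bhlha15 1449233_at ranged from 3.48 to 3.83 and from 3.20 to 3.67, Arfgef3 1435050_at from 3.38 to 3.55 and from 3.53 to 3.79, and Rab3d 1449259_at from 1.16 to 1.40 and from 1.00 to 1.25. Leaving out any 1 array left 6 or 7 members called with wild-type IRE1a (7 without wild-type replicate 3) and 6 with S724A IRE1a. Over all 30046 probe sets tested, it left 1006 to 1511 called with wild-type and 734 to 1368 with S724A IRE1a, in either direction. These comparisons chose the members, so nothing is read from these counts or from the signs. In the comparisons of the forms and of the hairpins no member passed in any of 132 values each, the smallest adjusted p being 0.375 and 0.150 by limma, both with the replicate block.

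The replicate block within each arm, which pairs same-number arrays, raised the counts of called probe sets from 1757 to 3482 with wild-type IRE1a, from 1466 to 3128 with S724A IRE1a, from 0 to 4 between the forms and from 51 to 244 between the hairpins. The same counts for genes went from 1250 to 2539, 997 to 2347, 0 to 2 and 38 to 200. With the block, 7 of 9 members were called against EGFP in either comparison, Bhlha15 1418800_at being the added one, and it changed no other member's call. Over all 30046 probe sets tested, 3482 and 3128 were called in either direction. Since these comparisons chose the members, nothing is read from the 7 of 9.

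Fitting only the 6 arrays compared gave 1106 probe sets with wild-type IRE1a, and 4 probe sets and 5 genes between the hairpins. A trended variance gave 2 genes between the forms. Leaving out 1 array gave 1006 (without EGFP replicate 2) to 1511 probe sets and 715 to 1108 genes with wild-type IRE1a. It gave 734 (without EGFP replicate 2) to 1368 probe sets and 485 to 979 genes with S724A IRE1a, and 0 to 0 between the forms. Between the hairpins it gave 21 (without IRE1a hairpin replicate 1) to 98 probe sets (without control hairpin replicate 3) and 13 (without IRE1a hairpin replicate 2) to 75 genes (without control hairpin replicate 3). Quantile normalisation lowered the share of called probe sets that were higher from 64.5% to 54.5% with wild-type and from 64.2% to 52.2% with S724A IRE1a; the causes of these shifts were not tested.

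Signals near background limit what can be seen of Arfgef3 without an IRE1a virus, and 3 arrays per group limit precision: the median half-width of a 95% interval was 0.31 over probe sets.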
